A study of Mus musculus with 17 samples.

Results

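Voltage-gated and related ion channel genes were examined in whole blood DNA of C57BL/6 mice, and 98 CCCGGG sites in 29 of 53 listed genes could be measured. The list held genes for potassium, calcium and sodium channels. A site was a member when it lay between 1000 bp upstream of an annotated transcription start and the end of a listed gene (GENCODE M1, mm9) and was read 50 or more times in 13 or more of 17 mice. The 53 genes held 634 CCCGGG sites in the tables, of which these 98 reached that depth, out of 18884 autosomal sites that did so in all. Of the remaining genes, 21 had sites but none with enough reads, and for 3 no site was analysed here. The 4 calcium-activated potassium channel genes (Kcnma1, Kcnn1, Kcnn2 and Kcnn3) had no member site. Although the list is named for voltage-gated channels, it also contains inward rectifiers, tandem-pore leak channels and KChIP auxiliary subunits, which are not gated by voltage in the same way.

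DREAM, a restriction-enzyme assay, read the methylation of each site. SmaI cuts CCCGGG only where the CpG is unmethylated, XmaI cuts the sites that remain, and the fragment end shows which enzyme made it. The groups were AL-young (5 mice, 4 months old, food ad libitum, 2 females and 3 males), AL-old (7 mice, 29 to 33 months, food ad libitum, 5 females and 2 males) and CR-old (5 mice, 32 to 38 months, calorie restricted from early adulthood per the study's methods, 2 females and 3 males). Each mouse gave 1 library. The labels give no genotype other than the strain, so all groups are taken as the same C57BL/6 background, and the CR-old mice were on average older than the AL-old mice. Blood is a mixture of cell types, so a change in the mixture and a change within one cell type cannot be told apart in these data.

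Voltage-gated channels open when the membrane potential changes and let potassium, calcium or sodium ions cross, which sets the firing of neurons and the contraction of muscle. In blood cells a small subset is known to work, with Kcna3 setting the membrane potential of T lymphocytes, while many channel genes act mainly in nerve and muscle. Promoters of such genes often lie in CpG islands, which are usually unmethylated, whereas CpG sites in gene bodies outside islands are usually methylated.

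Library depth ranged from 6.41 to 14.9 M reads (megareads) in 16 mice and reached 51.6 M reads in AL-young 30. Median reads per member site ranged from 77.0 to 2546. The authors corrected methylation with spiked standards, which multiplied the odds of methylation by 1 factor per mouse. That factor reached 1.3 in 6 mice (every AL-old female, 5 in all, and CR-old 06), against 0.872 to 1.13 in the other 11. Among AL-old mice the factor and sex cannot be told apart, because only the 2 males, AL-old 25 and AL-old 27, had a low factor and these were also the oldest of the group. Raw methylation, the share of methylated reads in mice with at least 50 reads, is given throughout, and the fit with the factor as an offset is given beside it where the call differed. Adjusted methylation is the authors' corrected percentage, which starts from counts with 0.5 added to the methylated reads and 1 to all reads. It is therefore above 0 even without a methylated read, and more so at few reads or a high factor. A factor above 1 generally places it over the raw value. Raw values of the 6 mice with a high factor therefore mostly lie below their adjusted values.

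The reference sequence around 5 of the called sites is shown first because these sites carry most of the findings. It is that of the plus strand (mm9), with the CCCGGG that was read in capitals. The first 3 gained methylation between AL-young and AL-old mice and lie in CpG islands, and the last 2 lost methylation and lie in an intron outside islands.
Kcnd2, chr6:21165077-21165196: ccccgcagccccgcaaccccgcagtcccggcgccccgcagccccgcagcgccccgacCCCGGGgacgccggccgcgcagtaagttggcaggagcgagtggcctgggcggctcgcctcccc
Kcnk9, chr15:72376944-72377063: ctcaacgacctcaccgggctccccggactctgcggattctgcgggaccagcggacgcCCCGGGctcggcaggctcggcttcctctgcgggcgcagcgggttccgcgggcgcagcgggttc
Kcnk12, chr17:88196547-88196666: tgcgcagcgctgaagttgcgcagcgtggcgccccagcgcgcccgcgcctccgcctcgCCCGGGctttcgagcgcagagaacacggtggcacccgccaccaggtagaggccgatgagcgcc
Kcnh1, chr1:194072119-194072238: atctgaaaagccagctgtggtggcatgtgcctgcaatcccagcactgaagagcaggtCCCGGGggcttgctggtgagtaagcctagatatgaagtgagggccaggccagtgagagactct
Kcnh1, chr1:194071985-194072104: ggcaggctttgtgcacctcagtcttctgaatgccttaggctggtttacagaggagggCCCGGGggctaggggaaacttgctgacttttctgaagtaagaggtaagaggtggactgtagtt
Each window is 120 bases long. The windows in Kcnd2 and Kcnk9 hold 17 CpG dinucleotides each and the Kcnk12 window holds 18, at a GC content of 81.7%, 75.0% and 74.2%. The Kcnh1 windows hold 1 CpG each, inside the enzyme site, with GC contents of 56.7% and 52.5%.

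Of the 98 sites, 72 lay in CpG islands and 26 outside them. The promoter, defined from 1000 bp upstream to 500 bp downstream of a start, held 57 of the island sites and 6 of the others. By annotation 36 sites were intronic, 26 lay in untranslated regions, 25 upstream of the gene, 10 in coding exons and 1 in a non-coding exon. Nearly all members (95 of 98) had another member within 500 bp. Neighbouring CCCGGG sites can be the 2 ends of the same DNA fragments, so members of 1 gene are not independent measurements.

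In AL-young mice 67 of the 72 island sites had a mean raw methylation under 5%, with a median of 0.538% over those sites. Outside islands, 9 of 26 sites had a mean over 90%, 15 lay between 10.8% and 89.7%, and 2 were under 5%. Kcna3, the T lymphocyte channel, and Kcng3, a silent subunit that modifies other potassium channels, each held a site with no methylated read in any mouse. At the Kcna3 site, 276 bp after the start in the coding exon, 0 of 1990 reads over the 17 mice were methylated, which allows up to 0.151%. At the Kcng3 site 276 bp before the start, 0 of 2495 reads were methylated, which allows up to 0.120%. The limit is 3 reads and covers counting error only.

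Distances are given from the nearest annotated start of the gene. Kcnd3, Kcng1 and some other genes have several starts, so distances of different sites in such a gene can count from different starts.

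The first comparison asked which channel-gene sites differed with age in mice fed ad libitum. Methylation was higher in AL-old than in AL-young mice at 4 of 98 sites, in Kcnd2, Kcnk9 and Kcnk12, and lower at 3 sites, in Kcnh1 and Kcng1. All 4 gains lay in CpG islands and all 3 losses outside them. A call required an adjusted p-value below 0.05 in edgeR's quasi-likelihood test, with Benjamini-Hochberg adjustment over all 18884 sites, and group means at least 2 percentage points apart. These were raw means, except that the fit with the correction offset used adjusted means. Over all sites tested, 3.94% were called higher and 6.01% lower with age. Among all island sites 5.30% were called higher, against 4 of 72 member island sites (5.56%). Among all sites outside islands 15.4% were called lower, against 3 of 26 (11.5%). The members' shares were near the background in both classes. With the correction factor as an offset, 6 member sites were called higher and 2 lower, beside 7.62% higher and 3.31% lower over all sites. The added sites were 1 more in Kcnd2 and 1 in Kcnd3, and Kcng1 was no longer called. In low-correction mice alone, where only AL-old 25 and 27 represent the old mice, 13 members were called higher and 0 lower, beside 8.67% and 1.70% over all sites. The 9 of these not called on reads lay in Cacna1i and Kcnk2 (2 sites each), Kcna6, Kcnd2, Kcnd3, Kcnj12 and Kcnj4.

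**Figure D1:**
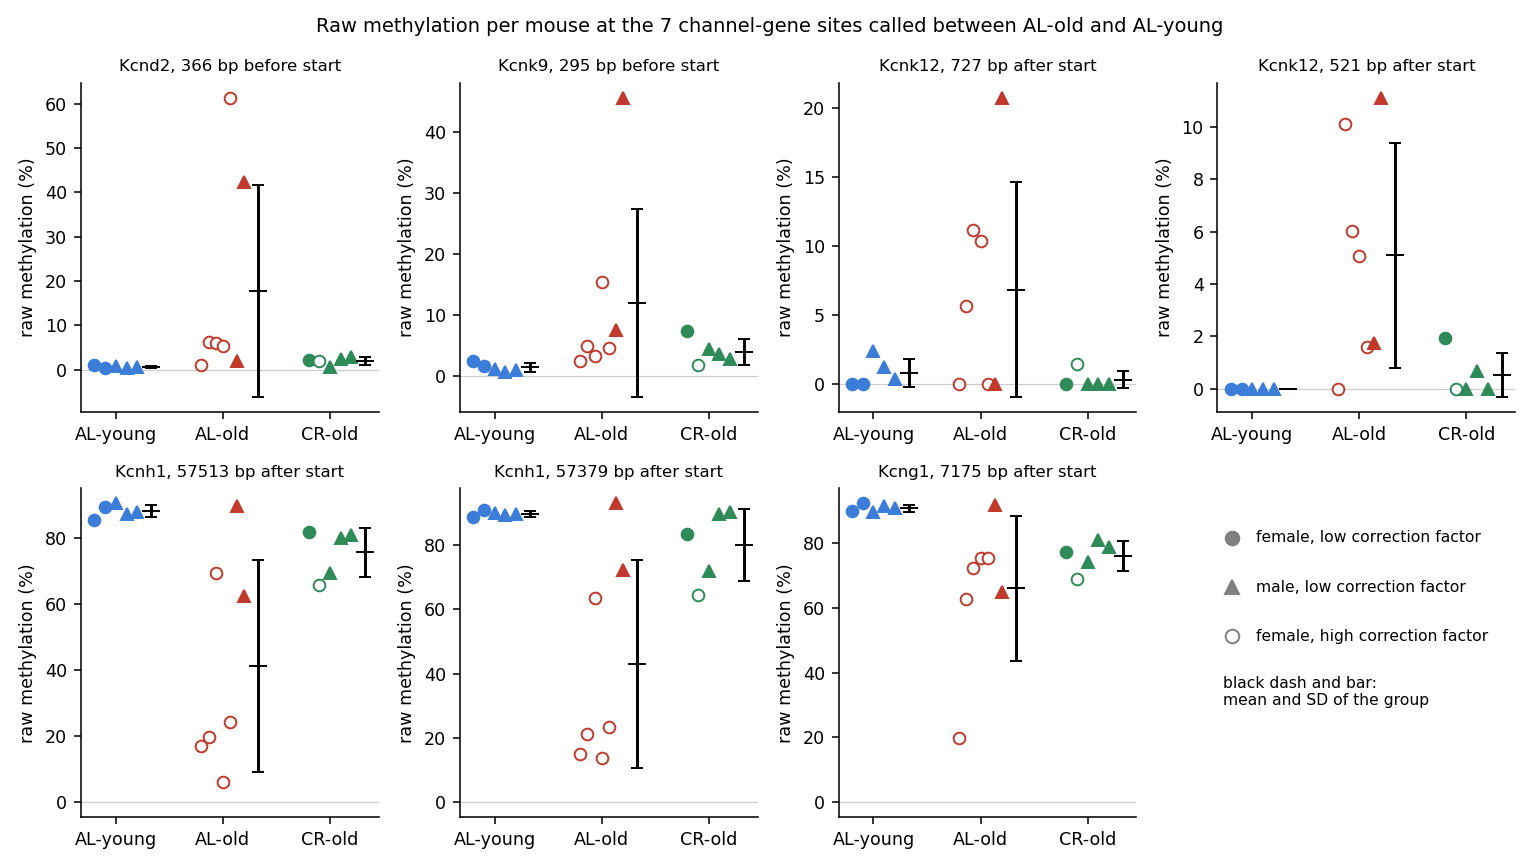
Raw methylation (%) of each mouse at the 7 sites called between AL-old and AL-young mice, named by gene and distance from the nearest transcription start. Circles are females and triangles males, open symbols mark mice with a correction factor of 1.3 or more, and the black dash and bar give the group mean and SD. AL-young mice sit together at every site, while AL-old mice spread from 1.09% to 61.3% at Kcnd2 and from 6.25% to 89.8% at the Kcnh1 site 57513 bp after the start.

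Kcnd2 (ENSMUSG00000060882.5) encodes a pore subunit of the A-type potassium current, which opens and inactivates quickly below firing threshold. Its called site lies at chr6:21165134-21165139, 366 bp upstream of the start, in an island at chr6:21164404-21165936. Raw methylation was 0.926%, 0.447%, 0.755%, 0.407% and 0.502% in AL-young mice 15, 16, 28, 29 and 30. AL-old mice ranged from 1.09% to 61.3% with a median of 6.09%. CR-old mice 02, 06, 19, 20 and 22 measured 2.08%, 1.93%, 0.580%, 2.33% and 2.77%. Every AL-old mouse was above every AL-young mouse, and AL-old 14 (61.3%) and AL-old 27 (42.3%) were far above the other 5. The group means were 0.607% ± 0.224 (SD, n = 5) in AL-young and 17.8% ± 24.0 (SD, n = 7) in AL-old mice. The log2 odds ratio was 3.81 ± 0.85 (SE), with an adjusted p of 0.00105 in edgeR. Without AL-old 14 the adjusted p was 0.00312, and in low-correction mice alone it was 0.0114. The CR-old mean of 1.94% ± 0.823 (SD, n = 5) differed from AL-old by -15.8 points, which did not pass the test on reads (adjusted p = 0.124) but passed with the correction offset (adjusted p = 0.00760).

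A second Kcnd2 site 172 bp upstream of the start, 194 bp from the first, followed the same mice. AL-old 14 measured 62.4% and AL-old 27 measured 40.9% there, and the other 5 AL-old mice lay between 1.13% and 4.31%. The AL-young mean was 1.02% ± 0.147 (SD, n = 5). The age difference of 15.3 points did not pass the test on reads (adjusted p = 0.0680) and passed with the correction offset (adjusted p = 0.00233).

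Kcnk9 (ENSMUSG00000036760.6) encodes an acid-sensitive leak channel of the tandem-pore family and is known as an imprinted gene expressed from the maternal copy in brain. Its called site lies at chr15:72377001-72377006, 295 bp upstream of the start, in an island at chr15:72376273-72378374. AL-young mice 15, 16, 28, 29 and 30 measured 2.47%, 1.72%, 1.24%, 0.752% and 1.03%. AL-old mice ranged from 2.54% to 45.5% with a median of 4.94%, and CR-old mice 02, 06, 19, 20 and 22 measured 7.40%, 1.86%, 4.45%, 3.67% and 2.75%. All AL-old mice were above all AL-young mice, by a narrow gap at the lowest, and AL-old 27 was the highest at 45.5% with AL-old 13 next at 15.4%. The means were 1.44% ± 0.674 (SD, n = 5) and 12% ± 15.4 (SD, n = 7), with a log2 odds ratio of 2.50 ± 0.74 (SE) and an adjusted p of 0.0165 in edgeR. The call was lost without AL-young 30, the deepest library (adjusted p = 0.0568). The CR-old mean was 4.03% ± 2.12 (SD, n = 5), and its difference from AL-old did not pass (adjusted p = 0.505). The 2 other Kcnk9 sites, 651 and 820 bp upstream, did not pass with age, with AL-young means of 2.56% and 4.47% and AL-old means of 4.98% and 4.78%. They lie in the same island, where the AL-young mean was under 5% at all 3 sites. Single AL-young mice exceeded that level at the site 820 bp upstream (5.95%, 5.60% and 5.09% in AL-young 15, 16 and 29).

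Kcnk12 (ENSMUSG00000050138.7) belongs to a halothane-inhibited branch of the same family. Both of its measured sites were called, 521 bp (untranslated region) and 727 bp (coding exon) after the start, in an island at chr17:88196130-88198301. At the site 521 bp after the start (chr17:88196810-88196815), no methylated read was seen in any AL-young mouse. That is 0 of 1206 reads over the group, which allows up to 0.249%. AL-old mice ranged from 0% to 11.1% with a median of 5.08%, and 6 of 7 were above 0. CR-old mice 02, 06, 19, 20 and 22 measured 1.94%, 0%, 0%, 0.685% and 0%. Over the pooled reads AL-old mice had 35 methylated of 646 (5.42%), at least 21.8-fold higher than the AL-young limit of 3 reads, and the adjusted p was 2.1e-04. In CR-old mice 3 of 653 reads were methylated (0.459%), which is 11.8-fold lower than in AL-old mice with a 95% counting interval of 3.72 to 59.9. That difference passed the test on reads (adjusted p = 0.0484). The groups overlapped, since CR-old 02 (1.94%) was above AL-old 08, 14 and 25.

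At the Kcnk12 site 727 bp after the start (chr17:88196604-88196609), AL-young mice 15, 16, 28, 29 and 30 measured 0%, 0%, 2.38%, 1.23% and 0.348%. AL-old mice ranged from 0% to 20.7% with a median of 5.59%, and CR-old mice measured 0% except CR-old 06 at 1.44%. The AL-old mice 09, 10, 13 and 27 lay above all AL-young mice and the other 3 had no methylated read. The means were 0.793% ± 1.02 (SD, n = 5), 6.82% ± 7.79 (SD, n = 7) and 0.288% ± 0.643 (SD, n = 5). The age difference passed narrowly (log2 odds ratio 2.92 ± 1.00 (SE), adjusted p = 0.0449), and it did not pass without any 1 of 8 mice, namely AL-young 15, 16 or 30, AL-old 09, 10, 13 or 27, or CR-old 19 (highest adjusted p 0.139, without AL-young 30). With high or low correction as a term in the model the log2 odds ratio was 2.90 (adjusted p = 0.184), and in low-correction mice it was 3.85 (adjusted p = 0.0430). These sites were among the shallowest, with 54 to 760 reads per mouse at the first and 58 to 574 at the second.

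Kcnh1 (ENSMUSG00000058248.6) encodes an EAG-type potassium channel, named for the fly mutant ether-a-go-go. Its 2 called sites lie 134 bp apart in an intron, 57379 and 57513 bp after the start, at chr1:194072042-194072047 and chr1:194072176-194072181, outside islands. At the first, AL-young mice 15, 16, 28, 29 and 30 measured 88.6%, 91.0%, 89.9%, 89.4% and 89.7%. AL-old mice ranged from 13.7% to 93.0% with a median of 23.5%. CR-old mice 02, 06, 19, 20 and 22 measured 83.4%, 64.6%, 72.1%, 89.8% and 90.2%. The 4 AL-old females 08, 09, 13 and 14 lay between 13.7% and 23.5%, AL-old 10 was at 63.4%, and the males AL-old 25 and 27 were at 93.0% and 72.4%. The means were 89.7% ± 0.877 (SD, n = 5) and 43.2% ± 32.3 (SD, n = 7), with a log2 odds ratio of -3.71 ± 0.80 (SE) and an adjusted p of 6.9e-04 in edgeR. In adjusted values AL-old 08, 09, 13 and 14 read 36.4%, 38.3%, 38.8% and 30.2%, against 88.6% to 90.8% in AL-young mice. The loss passed with the correction offset (adjusted p = 0.00112). It did not pass in low-correction mice alone, where AL-old meant 2 males (adjusted p = 0.671, AL-old mean 82.7%).

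The second Kcnh1 site gave nearly the same values, with a median absolute difference of 2.12 points over the 17 mice. Its means were 88.1% ± 1.92 (SD, n = 5) in AL-young, 41.2% ± 32.0 (SD, n = 7) in AL-old and 75.6% ± 7.46 (SD, n = 5) in CR-old mice. The age difference of -46.9 points in raw means was the largest of any member site (adjusted p = 7.0e-04 in edgeR). In adjusted means the most negative age difference of any member outside islands was -37.9 points. The 2 further Kcnh1 sites nearer the start, at 684 and 930 bp, had AL-young means of 12.4% and 48.7% and did not pass with age.

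Kcng1 (ENSMUSG00000074575.4) encodes a silent subunit that forms no channel alone and modifies delayed rectifier channels. The called site lies at chr2:168087653-168087658 in an untranslated region 7175 bp after the nearest start, which belongs to a shorter transcript, outside islands. AL-young mice lay between 89.4% and 92.2%, AL-old mice between 19.9% and 91.8% with a median of 72.2%, and CR-old mice between 68.9% and 80.9%. AL-old 08 was the lowest at 19.9%, and AL-old 25 was the only AL-old mouse inside the AL-young range. The means were 90.7% ± 1.13 (SD, n = 5), 66.0% ± 22.4 (SD, n = 7) and 75.9% ± 4.63 (SD, n = 5). The loss with age passed on reads (log2 odds ratio -2.12 ± 0.68 (SE), adjusted p = 0.0292), but not with the correction offset (adjusted p = 0.127) and not without any 1 of 7 mice, namely AL-old 08 or 09 or any AL-young mouse (highest adjusted p 0.0755, without AL-old 08). A neighbour 121 bp away had means of 90.1% and 68.6% and did not pass (adjusted p = 0.211). The deepest promoter site of the silent subunits, 377 bp after the nearest Kcng1 start in an island, had 0.447% ± 0.455 (SD, n = 5), 1.05% ± 0.311 (SD, n = 7) and 1.39% ± 1.14 (SD, n = 5) and was not called.

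The ranges of AL-old and AL-young mice did not overlap at 2 of the 98 sites, both with AL-old above and both in islands (Kcnd2 and Kcnk9). Over all sites AL-old mice lay wholly above AL-young mice at 2.00% and wholly below at 2.07%. No member site had all AL-old mice below all AL-young mice. Across the 72 island members the median difference in raw means was 0.249 points (45 higher and 25 lower), against 0 over all island sites, and in adjusted means it was 0.891 (63 higher and 9 lower) against 0.265. Adjusted differences include the added 0.5 read. At the Kcng3 site with no methylated read in any mouse, adjusted values were 2.41% in AL-old 08 and 2.29% in AL-old 13. AL-young mice had 0.0800% to 0.580% there. Across the 26 members outside islands the median difference was -7.58 points raw (6 higher and 20 lower) against -3.41, and -2.46 adjusted (11 higher and 15 lower) against -0.783.

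**Figure D2:**
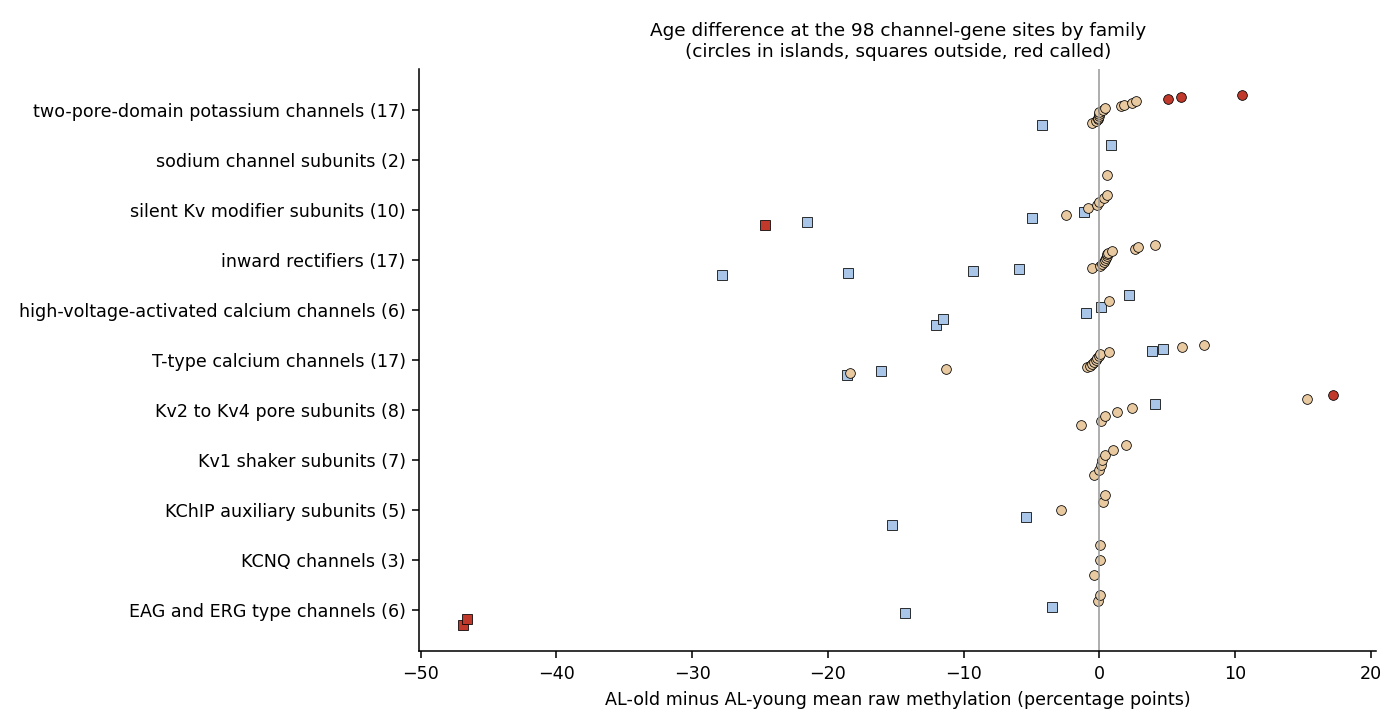
Difference in mean raw methylation between AL-old and AL-young mice (percentage points) at each of the 98 sites, by channel family with the number of sites in brackets. Circles are island sites, squares sites outside islands, and red marks the 7 called sites. Points right of the line at 0 were higher in AL-old mice, and the 3 sites farthest left include both called Kcnh1 sites at -46.9 and -46.6 points.

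The remaining potassium channel pore subunits had no site called on reads. The Kv1 (shaker-type) genes Kcna1, Kcna3, Kcna6 and Kcna7 held 7 island sites with AL-young means of 0% to 2.99% and AL-old means of 0% to 5.0%, none called. The deepest promoter site of that family, in Kcna6, read 2.34% ± 0.532 (SD, n = 5), 2.55% ± 2.54 (SD, n = 7) and 2.32% ± 1.24 (SD, n = 5) in the young, old and restricted mice. In Kcnd3, which also encodes an A-type subunit, the deepest site of all members (138 bp after the start) had 1345 to 10685 reads per mouse and means of 1.17% ± 0.871 (SD, n = 5), 1.3% ± 1.24 (SD, n = 7) and 0.678% ± 0.341 (SD, n = 5). The Kcnd3 site at chr3:105255739-105255744, 251 bp after an upstream start, had means of 0.573% and 3.01% in AL-young and AL-old mice, a difference that missed the threshold on reads (adjusted p = 0.0561) and passed with the correction offset (adjusted p = 0.00942). At the Kcnd3 site 309 bp after the start the mean and the test differed in sign. AL-old mice averaged 7.68% against 3.57%, through AL-old 10 (12.4%) and AL-old 27 (36.3%), while the other 5 AL-old mice were below every AL-young mouse and the log2 odds ratio was -0.90 ± 0.83 (SE). Both Kcnc4 sites, in the coding exon, were not called.

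Kcnh3 and Kcnq3, which encode an Elk-type channel and a subunit of the M-current, had 5 island sites between them. Their AL-young means ranged from 0.0643% to 0.627% and their AL-old means from 0% to 0.569%, with no call. The deepest promoter sites, 633 bp upstream in Kcnh3 and 374 bp upstream in Kcnq3, had 0.0739% ± 0.118 (SD, n = 5) and 0.255% ± 0.277 (SD, n = 5) in AL-young mice, and 0.108% ± 0.199 and 0.292% ± 0.415 (SD, n = 7) in AL-old mice. In Kcnip3, a calcium-binding auxiliary subunit of A-type channels, the 2 sites nearest the start had low means in every group. The deeper of them, 285 bp after the start, had 0.115% ± 0.108 (SD, n = 5), 0.406% ± 0.444 (SD, n = 7) and 0.185% ± 0.191 (SD, n = 5) in the young, old and restricted mice, in that order. The site 18 bp after its start had 0.0864% and 0.510% in AL-young and AL-old mice, and its adjusted p was 0.175 on reads and 0.0429 with the offset, without reaching the required 2 points in raw or adjusted means.

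Inward rectifiers pass potassium more easily inward and hold the resting potential. Their 17 sites, in Kcnj2, Kcnj3, Kcnj4 and Kcnj12, included 13 island sites with AL-young means of 0% to 3.52%, and none was called. The deepest promoter site, in Kcnj4, had 0.278% ± 0.161 (SD, n = 5), 0.331% ± 0.388 (SD, n = 7) and 0.247% ± 0.0692 (SD, n = 5). Inside the Kcnj4 gene body 4 sites outside islands had AL-old minus AL-young differences of -27.8 to -5.88 points without a call. The site 6401 bp after the start, for example, went from 73.4% ± 4.26 (SD, n = 5) to 45.6% ± 24.8 (SD, n = 7), with an adjusted p of 0.0895. Among the tandem-pore genes, Kcnk2, Kcnk3, Kcnk10 and Kcnk13 held 12 of the 17 sites and none was called. The deepest promoter site of that family was the Kcnk9 site 651 bp upstream given above.

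T-type calcium channels open at low voltage and pace rhythmic cells. Cacna1g, Cacna1h and Cacna1i held 17 sites, and none was called with age on reads. The deepest promoter site, 2 bp after the Cacna1g start, had 0.306% ± 0.141 (SD, n = 5), 0.0691% ± 0.0745 (SD, n = 7) and 0.211% ± 0.127 (SD, n = 5), all well under 1 point apart. In the Cacna1i island, the sites 592 and 738 bp after the start had AL-old means of 8.57% ± 11.1 and 12.1% ± 21.0 (SD, n = 7) against 2.44% and 4.31% in AL-young mice, and neither passed on reads. In low-correction mice both were called higher (adjusted p = 0.0364 and 0.0223), and the second also with high or low correction in the model (adjusted p = 0.0358). The high-voltage-activated calcium channel genes Cacna1a and Cacna1c held 6 sites. Of these, 2 Cacna1a introns and 2 Cacna1c sites were over 90% methylated in AL-young mice, and none was called. Scn4b, a sodium channel beta subunit, held 2 sites with AL-young means of 0.806% and 13.6%, neither called.

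**Figure D3:**
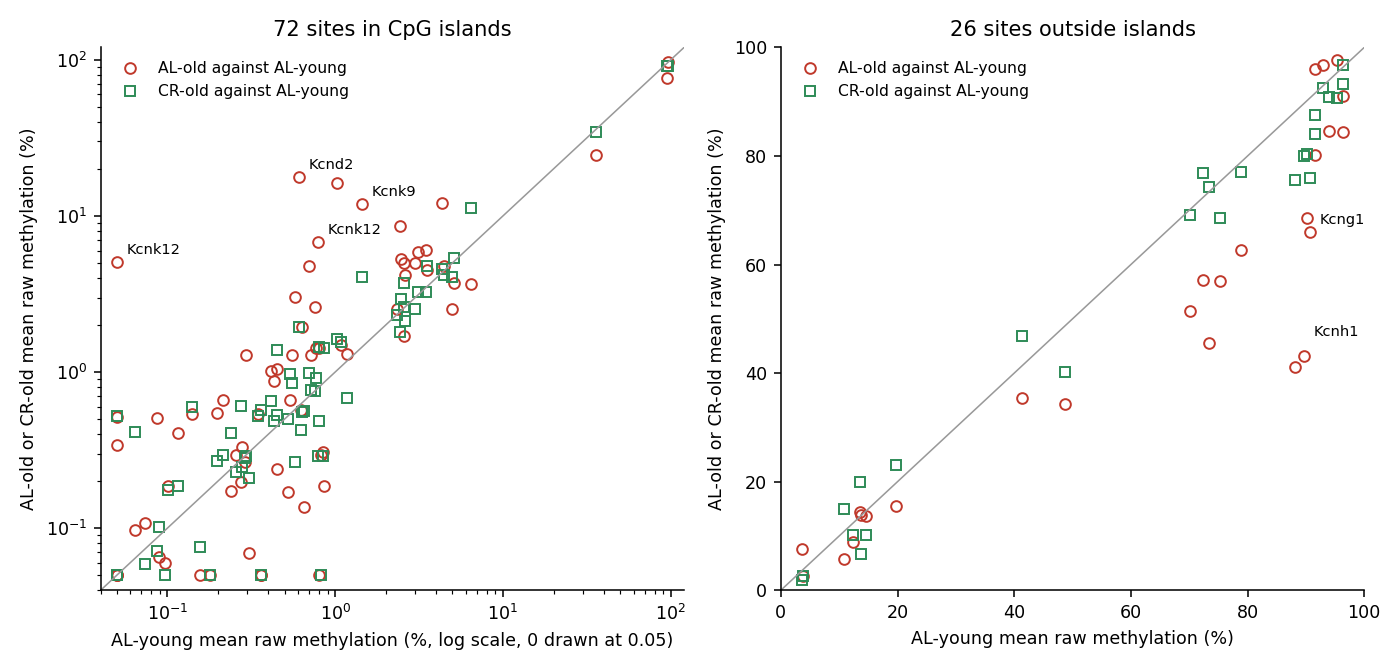
Mean raw methylation (%) of AL-old (circles) and CR-old (squares) mice against AL-young mice at the 72 island sites, on log axes with 0 drawn at 0.05, and at the 26 sites outside islands on linear axes. The grey line marks equal means. Kcnd2, Kcnk9 and Kcnk12 stand above the line in AL-old mice, and Kcnh1 and Kcng1 stand below it, with CR-old squares closer to the line at Kcnh1.

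The second comparison asked whether calorie restriction changed methylation in old mice, with AL-old mice shared with the age comparison. CR-old mice differed from AL-old mice at 2 member sites. The Kcnh1 site 57379 bp after the start was higher in CR-old mice (64.6% to 90.2%) than in AL-old mice (13.7% to 93.0%). The raw means differed by 36.9 points (log2 odds ratio 2.77 ± 0.81 (SE), adjusted p = 0.0371 in edgeR). In adjusted values the ranges were 73.7% to 90.4% in CR-old and 30.2% to 91.9% in AL-old mice. The Kcnk12 site 521 bp after the start was lower, with the values given above. Over all sites, 1.58% were called higher and 1.76% lower in CR-old mice. With the correction offset 1 member was called higher and 7 lower, beside 1.18% higher and 6.87% lower over all sites. These 7 lower sites lay in Kcnd2 (2 sites), Kcnk12 (2 sites), Kcnd3, Cacna1i and Cacna1h. The Cacna1h site, 1420 bp before the nearest start and outside islands, had raw means of 96.1% ± 2.45 (SD, n = 4) and 87.5% ± 5.78 (SD, n = 5), since AL-old 08, 13 and 27 had under 50 reads there. No member site had all CR-old mice on 1 side of all AL-old mice, against 0.281% above and 0.810% below over all sites. The median CR-old minus AL-old difference was -0.0735 points raw and -0.779 adjusted over the island members, the latter against -0.284 over all island sites. Outside islands it was 6.91 raw against 0.693, and 2.17 adjusted against -0.738.

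Both calls depended on single mice. The Kcnh1 call was lost without AL-old 08, 09, 13 or 14 or CR-old 02, 19, 20 or 22 (highest adjusted p 0.13, without CR-old 20). The Kcnk12 call was lost without AL-old 09, 10, 13 or 27, AL-young 15, or CR-old 06, 19, 20 or 22 (highest adjusted p 0.149, without CR-old 19). In low-correction mice the log2 odds ratio at Kcnh1 was -0.02 (adjusted p = 1.00), and at Kcnk12 the difference had the same direction without passing (adjusted p = 0.107). In that subset AL-old was represented by AL-old 25 and 27 alone. With sex in the edgeR model neither call passed (adjusted p = 0.103 at Kcnh1 and 0.0708 at Kcnk12).

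The third comparison set CR-old against AL-young mice. No member site was called in edgeR, and none was called over all sites (0% higher and 0% lower). At an unadjusted p under 0.05 there were 4 members, 1 higher and 3 lower, and the share of all sites at that level was not counted. Neither the correction offset nor limma on adjusted methylation called any member. When only these 2 groups entered the fit, so that the wide AL-old spread was left out, 1 member was called higher (Kcnk9, 295 bp upstream) and 3 lower (Kcnh1 at 57513 bp, Kcng1 at 7175 bp and a Cacna1c intron), beside 0.842% higher and 6.29% lower over all sites. All CR-old mice lay below all AL-young mice at 5 members, each outside islands, and above them at 1. Over all sites the shares were 6.74% below and 1.07% above. The 5 sites were the called Kcng1 site (68.9% to 80.9% against 89.4% to 92.2%), the Kcnh1 site at 57513 bp, 1 Cacna1a intronic site and 2 intronic Cacna1c sites, and the site above was the Kcnk9 site 651 bp upstream.

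Differences with age and diet were compared between females and males by an interaction term, on reads without the offset. AL-old held only 2 males, and in that group sex and the correction factor cannot be told apart. The term therefore compares both at once, and no conclusion about sex is drawn from it. No member site was called at an adjusted p under 0.05 for age or for diet (lowest adjusted p 0.322 and 0.979). Over all sites 0.0106% and 0.00530% were called at that adjusted threshold. The unadjusted p was under 0.05 at 18 and 7 members, and the share of all sites at that level was not counted.

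In raw values AL-old mice varied more than the other groups. Their correction factors also differed most, from 0.872 to 3.96, against 0.896 to 1.13 in AL-young and 0.885 to 1.80 in CR-old mice. Over means per mouse, the AL-old SD outside islands was 10.4 raw and 3.37 adjusted, and in islands 2.33 and 2.15. How much of the raw spread came with the factors was not tested, and the SDs below are raw. The median SD per island member was 0.402 points in AL-young, 0.918 in AL-old and 0.476 in CR-old mice, and outside islands it was 1.95, 15.0 and 4.98. Over all sites the medians were 0.178, 0.230 and 0.192 in islands and 1.48, 10.3 and 3.71 outside. An SD above 5 points in AL-old mice occurred at 10 of 72 island members (13.9%) and 20 of 26 others (76.9%), against 17.7% and 66.3% of all sites of those classes.

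Per mouse, the mean over the 57 island members read at 50 or more in all 17 mice was 1.17% ± 0.173 (SD, n = 5) in AL-young, 2.80% ± 2.33 (SD, n = 7) in AL-old and 1.32% ± 0.365 (SD, n = 5) in CR-old mice. AL-old 08 was lowest of all mice at 0.603% and AL-old 27 highest at 7.62%, with AL-old 14 next at 3.82%. After the authors' adjustment the means were 1.34% ± 0.140, 4.34% ± 2.15 and 1.59% ± 0.10, and every AL-old mouse (2.07% to 7.29%) was above every other mouse (1.13% to 1.76%). For the 20 members outside islands the raw means were 52.2% ± 0.885, 39.0% ± 10.4 and 48.8% ± 4.39. The adjusted means were 52.6% ± 0.436, 46.5% ± 3.37 and 50.4% ± 1.87. The lowest raw values, 24.4% and 27.8%, were in AL-old 13 and AL-old 08, which also had the highest correction factors (3.96 and 3.19). These means are descriptions and were not tested, and the adjusted ones include the added 0.5 read. Over all 10977 island sites read in every mouse the adjusted means were 6.32% ± 0.103, 8.03% ± 1.25 and 6.37% ± 0.144. There too every AL-old mouse (6.59% to 9.66%) was above every other mouse (6.22% to 6.58%), narrowly at the lowest. Over all 4591 sites outside islands the adjusted means were 67.6% ± 0.833, 64.0% ± 2.93 and 64.2% ± 1.94. The raw means there were 67.4% ± 0.384, 59.0% ± 5.73 and 63.2% ± 1.58.

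**Figure D4:**
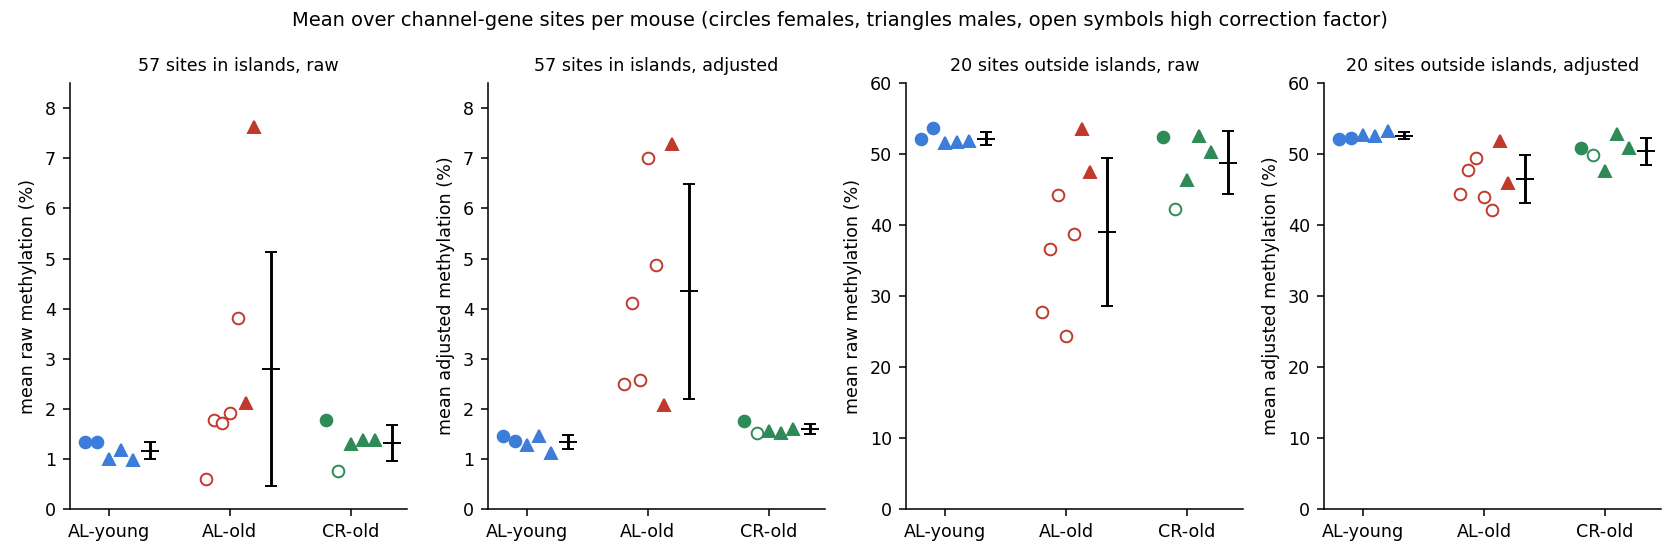
Mean methylation (%) per mouse over 57 island members and 20 members outside islands, raw and after the authors' adjustment. Circles are females, triangles males, open symbols mice with a correction factor of 1.3 or more, and the black dash and bar the group mean and SD. In islands the adjusted AL-old values (2.07% to 7.29%) all lie above the AL-young and CR-old values, while the raw AL-old values run from 0.603% to 7.62%. Over all island sites read in every mouse, not drawn, the adjusted AL-old values also lie above the others.

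Of the 67 island members under 5% in AL-young mice, AL-old 27 had a raw value of at least 5% at 18 of the 58 it covered, the other AL-old mice at 0 to 9, and CR-old mice at 0 to 5. In adjusted values AL-old 13 had the most such sites (23), AL-old 09 and 27 had 18 each, and the other AL-old mice had 6 to 10. AL-old 27 had the highest raw value of all 17 mice at 26 of those 58. The raw count did not exceed 3 in any AL-young mouse. Outside islands, in raw values, AL-old 08 was at least 10 points below the AL-young mean at 16 of 20 sites it covered and AL-old 13 at 13 of 18, whereas AL-old 25 was so at 0 of 23. In adjusted values these counts were 6, 7 and 1, and AL-old 14 had the most at 9.

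Ion channel genes outside the list, taken as further potassium, calcium, sodium and hyperpolarization-activated channel genes, held 79 sites in 25 of 80 genes. Of these, 4 were called lower with age on reads, beside 6.01% lower over all sites. The losses were 2 intronic sites of Kcnt1, 1 of Kcne3 and 1 of Cacng2, the last from 73.6% ± 4.65 (SD, n = 5) to 28.8% ± 25.0 (SD, n = 7) (adjusted p = 0.00133). With the correction offset the Kcnt1 sites did not pass (adjusted p = 0.132 and 0.182), while Kcne3 and Cacng2 did (0.0296 and 0.00507). In CR-old mice the Kcne3 site was higher than in AL-old mice on reads (9.73% against 2.83%, adjusted p = 0.0365) but not with the offset (adjusted p = 0.0760).

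Expression was not measured, so the tissue could not be checked by marker RNA. Lineage genes of blood gave 22 sites in 7 of 28 genes. Their mean raw methylation ranged from 36.6% to 39.2% in AL-young, 25.6% to 41.7% in AL-old and 28.5% to 36.3% in CR-old mice, with 4 sites called higher and 2 lower with age, on reads and with the offset alike in number, beside 3.94% higher and 6.01% lower over all sites on reads. With the offset the age shares over all sites were 7.62% higher and 3.31% lower. For diet 1 of the 22 sites was called lower on reads and 7 with the offset, beside 1.76% and 6.87% lower over all sites. By list, T cell genes (10 sites in 2 genes) had 4 called higher and 1 lower, B cell genes (5 sites in 2 genes) none, and granulocyte and monocyte genes (7 sites in 3 genes) 1 lower. Their part in the channel-gene results was not tested.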

How the data were processed

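DREAM was performed by the authors on whole blood DNA of 17 C57BL/6 mice with spiked methylation standards, and reads starting with CCGGG (methylated) or GGG (unmethylated) were counted at each CCCGGG. The submitters' processing notes name Bowtie2, SAMtools, mm9 and mm10, without versions, and all positions lay on CCCGGG in mm9. The deposited tables hold read counts per site and mouse, and methylation in percent, raw and adjusted to the standards by the authors. From these, odds of adjusted over raw methylation gave 1 correction factor per mouse. An island needed 200 bp, 50% GC and 0.6 of the CpG number that base composition predicts. Groups, ages and sexes came from the labels.

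Methylated and unmethylated read counts were fitted with edgeR 4.0.16 (quasi-likelihood F test, R 4.3.3, 1 coefficient per mouse, 1 common dispersion, all 17 mice) over the 18884 autosomal sites read 50 or more times in 13 or more mice. SE is the log2 odds ratio over the root of F. At 50 reads a site at 50% has a 95% Wilson interval of 36.6 to 63.4%, and 3 reads are 6.00%, covering counting error only. limma 3.58.1 on logit adjusted methylation was an alternative. Python 3.11.15 was used for the rest, and scripts were tested on simulated data. Each mouse has its own number in the labels and was taken as a separate animal. Within groups, no pair of libraries agreed within sampling noise on raw reads (lowest chi-square per site 2.05). Differing correction factors also raise that value, so it cannot show that the animals were separate. Named sites were the called members (for age up to 12 higher and 8 lower, for diet and for CR-old minus AL-young up to 6 each way) and the deepest promoter site of each family. Kcnd3, Cacna1h, Cacna1i, Kcnip3, Kcnj4 and other sites described for context, as well as the thresholds of 5 and 10 points, were chosen after their values were seen. The members and lists were chosen with earlier results of these data known. Alternatives were the correction factor as offset or covariate, low-correction mice, the 2 groups alone, sex, other depths and differences, limma, and each mouse left out. One result among the channel genes outside the list is not reported here.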

Additional observations from a re-analysis of the deposited data

Results flagged for a closer look

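A single mouse was flagged as apart from the rest of its group (Dixon's test at the 95% level) in 7 of 53 groups examined, and chance alone flags about 1 in 20 where values are not tied. In AL-old mice, AL-old 27 was high at the Kcnk9 site 295 bp upstream (45.5%, next 15.4%) and at the Kcna6 site 231 bp before the nearest start (7.78%, next 3.06%). AL-old 08 was low at the Kcng1 site 7175 bp after the start (19.9%, next 62.7%). In CR-old mice, CR-old 06 was the only mouse with methylated reads at the Kcnk12 site 727 bp after the start (1.44%), and CR-old 20 the only one at the deepest Kcnh3 promoter site (0.296%). Each of these values was 2 methylated reads. Where all other mice of a group are at 0 the test flags any value above 0, so these flags say nothing about its size. In AL-young mice, AL-young 15 was high at the deepest Kcnd3 promoter site (2.70%, next 1.10%), and AL-young 16 had the highest mean over the members outside islands (53.7%, next 52.1%). What set these mice apart was not tested.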

How the results depend on the processing

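No paired analysis was possible because the groups share no mouse numbers. Shares of all sites called are given above for the fit on reads, and for age and diet with the offset. They are also given for age in low-correction mice and for CR-old against AL-young in the 2-group fit. For the other alternatives they were not counted, so those member counts cannot be compared with all sites. For age, member sites called higher were 4 on reads, 13 in low-correction mice (2 AL-old males), 2 at 100 reads and 7 by limma, and 2 to 6 with a mouse left out (2 without AL-young 30). Sites called lower were 3 on reads, 0 with the correction class (high or low) in the model, 0 in low-correction mice, and 2 to 6 with a mouse left out (6 without AL-old 25 and 5 without AL-old 27). For diet, the single higher call became 0 with the covariate, in low-correction mice, with the 2 groups alone, with sex and by limma, and was 0 to 4 with a mouse left out. The single lower call became 7 with the offset, 2 by limma, 0 with the covariate, in low-correction mice, with the 2 groups alone, at 100 reads and at a minimum difference of 5 points, and was 0 to 4 with a mouse left out. With sex in the edgeR model the count stayed at 1 but the site changed. The Kcnk12 site at 521 bp no longer passed (adjusted p = 0.0708), and the Kcnk12 site at 727 bp did (adjusted p = 0.0428). For CR-old against AL-young the 2 groups alone gave 1 higher and 3 lower in place of 0. The diet change at Kcnh1 turned to -0.02 in low-correction mice. Mean methylation outside islands moved from 52.2% to 47.7% in AL-young and from 48.8% to 42.6% in CR-old mice at 100 reads, where fewer sites enter, and from 39.0% to 50.5% in AL-old low-correction mice. The cause was not tested for the rest. Leaving out a mouse gave group means of 1.13 to 1.22, 2.00 to 3.17 and 1.21 to 1.46% in islands and 51.8 to 52.3, 36.6 to 41.4 and 47.9 to 50.4% outside. The Kcnd2 and Kcnk12 (521 bp) age gains passed under each alternative run (the latter site has too few reads for the 100-read minimum), with adjusted p up to 0.0114 and 0.00795.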
